A study of Homo sapiens with 2 samples.

Results

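The region described here is the 11q13 segment of chromosome 11 from 68 to 73 Mb (hg38), and its members are all H4K5ac peaks of either deposited list with a summit in that interval. Of 258195 hypoxia peaks in the series 1443 were members, as were 650 of 120033 normoxia peaks, so that 2093 of 378228 peaks in both lists together lay in the region. Members were chosen by the position of their summits, and the segment was selected on peak numbers of these lists, so peak numbers, positions and the difference between the libraries are given below as a description, with no test.

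The series mapped histone H4 acetylated at lysine 5 (H4K5ac) by chromatin immunoprecipitation and sequencing (ChIP-seq) in FaDu, an established cell line of a human head and neck squamous carcinoma. There were 2 libraries of 75 bp single-end reads, 1 from FaDu cells held in 1% oxygen for 18 h (hypoxia) and 1 from FaDu cells in normoxia; the conditions have 1 library each and no replicate. H4K5ac is the target by the sample labels, the design text names another mark, and the culture protocol mentions a METTL4 knockdown that no label assigns to either library. Peaks lay at a gene end of 8 of 8 squamous epithelial marker genes in hypoxia and 7 of 8 in normoxia. For markers of other cell types the counts were 2 and 0 of 3 blood genes, 3 and 1 of 3 endothelial genes, and 3 and 2 of 4 fibroblast genes. Over 19974 protein-coding genes 69.3% had a peak at a gene end in both lists, 11.7% in hypoxia only and 1.08% in normoxia only, so the marker counts are no more than a coarse check of the cell type.

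Acetylation of histone H4 at lysine 5 is found at active promoters and enhancers, where it loosens chromatin and is read by bromodomain proteins. Band 11q13 is one of the most frequent amplifications of head and neck squamous carcinoma, and FaDu is known to carry extra copies of it around CCND1, the gene of cyclin D1, which drives entry into DNA synthesis. Extra copies of a segment give more reads from it in any ChIP library, and in these peak lists more copies and more mark per copy cannot be told apart.

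Sequences of gene starts that lay under peaks of both lists are given here as context for the marks described below. Of the 6 genes CCND1, FGF19, ANO1, FADD, CTTN and SHANK2, the RefSeq promoter table holds ANO1 and FADD. PPFIA1 and LTO1 were added after their values were seen, because their starts carried some of the highest pileups of the region. Each sequence is the 300 bases from 250 before to 50 after the annotated start in GRCh38.p14, on the gene's own strand, with capitals marking the core of a hypoxia response element. The cores searched were ACGTG and GCGTG, on both strands, so that a core on the opposite strand reads CACGT or CACGC.
ANO1 (chr11:69985657-69985956, plus strand): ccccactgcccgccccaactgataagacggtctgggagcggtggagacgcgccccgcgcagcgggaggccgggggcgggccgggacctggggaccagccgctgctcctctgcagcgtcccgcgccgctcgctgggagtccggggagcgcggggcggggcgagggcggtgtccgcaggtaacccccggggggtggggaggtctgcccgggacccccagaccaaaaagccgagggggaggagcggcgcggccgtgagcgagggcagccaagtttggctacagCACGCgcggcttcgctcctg
FADD (chr11:70203046-70203345, plus strand): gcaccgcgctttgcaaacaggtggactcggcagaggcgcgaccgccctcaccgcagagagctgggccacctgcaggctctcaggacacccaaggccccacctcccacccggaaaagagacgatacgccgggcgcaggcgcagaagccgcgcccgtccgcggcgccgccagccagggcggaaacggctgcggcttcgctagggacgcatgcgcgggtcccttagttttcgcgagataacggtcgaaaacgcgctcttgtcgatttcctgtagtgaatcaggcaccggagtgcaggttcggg
PPFIA1 (chr11:70270440-70270739, plus strand): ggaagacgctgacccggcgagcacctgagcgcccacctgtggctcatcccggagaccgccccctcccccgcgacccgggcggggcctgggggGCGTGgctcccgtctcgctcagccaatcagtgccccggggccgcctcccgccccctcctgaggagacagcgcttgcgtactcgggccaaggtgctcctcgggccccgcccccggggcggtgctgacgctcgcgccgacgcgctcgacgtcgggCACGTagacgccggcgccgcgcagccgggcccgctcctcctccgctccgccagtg
LTO1 (chr11:69675304-69675603, minus strand): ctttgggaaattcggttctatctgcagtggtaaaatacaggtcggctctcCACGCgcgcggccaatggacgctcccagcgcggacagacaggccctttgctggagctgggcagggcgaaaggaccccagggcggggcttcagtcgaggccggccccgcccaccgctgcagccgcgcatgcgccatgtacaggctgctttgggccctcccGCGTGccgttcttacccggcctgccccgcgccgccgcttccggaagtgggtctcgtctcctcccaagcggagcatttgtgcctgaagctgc
All 4 windows were overlapped by a peak in hypoxia and in normoxia. They are rich in CpG, with 36 CpG in ANO1, 36 in FADD, 42 in PPFIA1 and 29 in LTO1, against a median of 14 over 34961 promoters. At least 1 core was present in 48.48% of those promoters, ACGTG in 21.41% and GCGTG in 36.58%. FADD holds no core in this window, ANO1 has 1, and PPFIA1 and LTO1 have 2 each.

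Over the whole region the 2 lists differed in the number of strong peaks more than in the number of all peaks. The 1443 hypoxia and 650 normoxia peaks stood in a ratio of 2.22 (95% counting interval 2.02 to 2.44), near the 2.15 of the 2 full lists. Of these, 593 hypoxia peaks and 179 normoxia peaks were strong, defined as a −log10 q-value no lower than 10. Their ratio was 3.31 (2.80 to 3.94), against 1.63 over the full lists. They made up 41.1% of the region's hypoxia peaks and 27.5% of its normoxia peaks, against 18.9% of all hypoxia peaks and 25% of all normoxia peaks.

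With a threshold on fold enrichment instead of q, the picture depended on the level of the threshold. The fold is the summit pileup, the reads covering the summit, over the local background, the reads the peak caller expected there. A fold of at least 3 was reached by 326 hypoxia and 139 normoxia peaks, whose ratio of 2.35 (1.92 to 2.88) was near the 2.36 of the full lists. At a fold of at least 2 there were 904 and 343 peaks, a ratio of 2.636 (2.325 to 2.993), above the 2.152 of the full lists. At a high background a small fold suffices for a small q-value. The lowest fold of a strong peak was 1.48 in hypoxia and 1.75 in normoxia, and both lay in the dense block described below. Strong peaks with a fold below 2 were rare in the series, at 145 in hypoxia and 14 in normoxia, and the region held 119 and 8 of them. Strong peaks with a fold of at least 3 counted 161 in hypoxia and 102 in normoxia, and their ratio of 1.58 (1.22 to 2.04) was near the 1.61 of the full lists. Strong peaks with a fold below 3 counted 432 and 77, a ratio of 5.61 (4.39 to 7.25), against 2.21 over the full lists. The excess of strong hypoxia peaks thus lay in peaks of low fold.

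**Figure D1:**
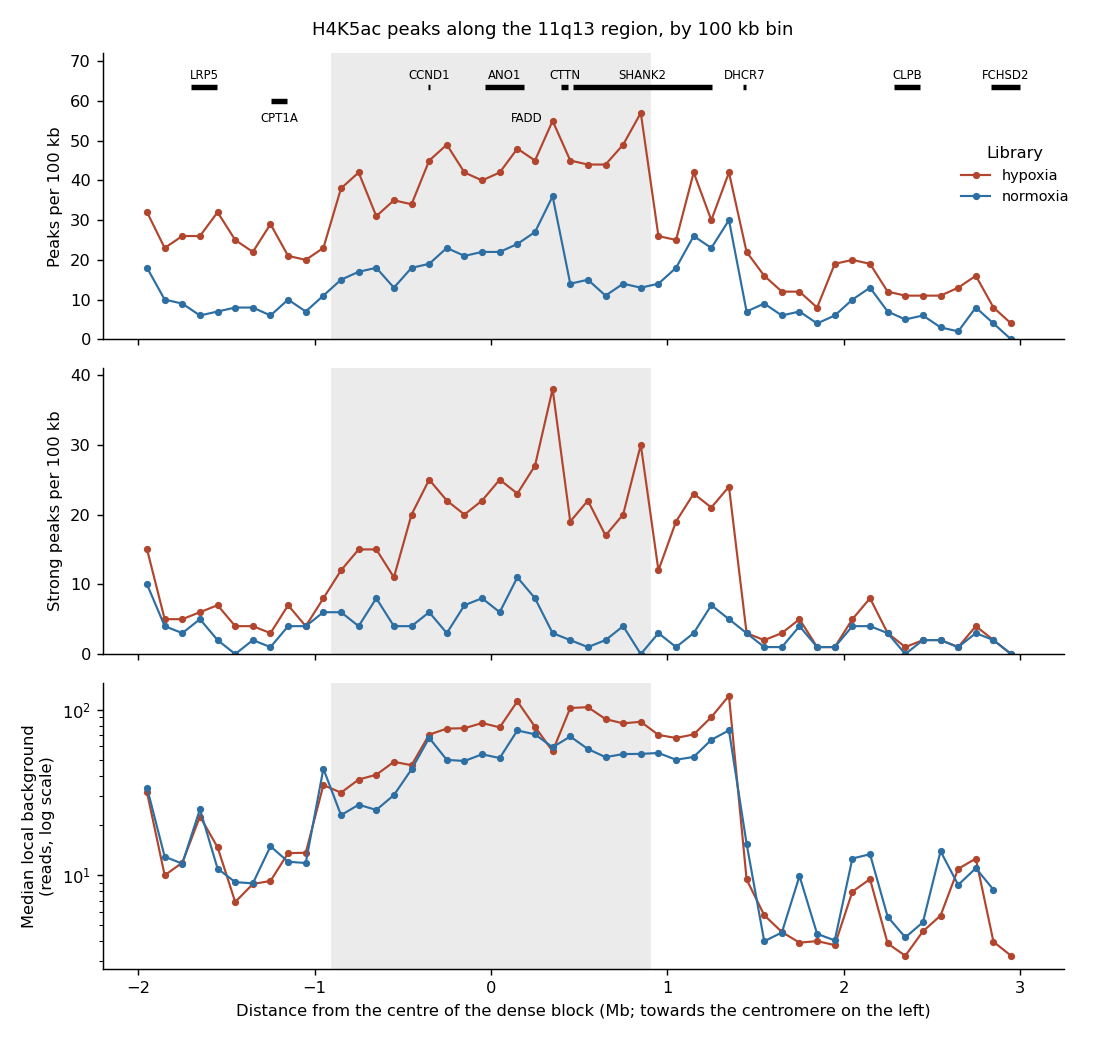
Peaks per 100 kb bin (top), strong peaks per bin (middle) and the median local background of the peaks in each bin (bottom, reads on a log scale) against the distance from the centre of the dense block, for the hypoxia library (red) and the normoxia library (blue). The grey band is the dense block, black bars are gene spans, and background falls at +1.4 Mb in both libraries while peak numbers of the bins in the middle reach 57 in hypoxia and 36 in normoxia.

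Most dense bins of the region formed 1 block that began just past TPCN2 and ended inside SHANK2. A 100 kb bin was called dense when its number of hypoxia peaks was at least 30, the 99th percentile of bins with a hypoxia peak. By that rule 1.04% of such bins in the genome were dense, and 23 of the 272 dense bins lay in the region, which was selected on peak numbers. With at most 1 other bin allowed between dense ones, the block ran from 69.1 to 70.9 Mb, and all of its 18 bins were dense. The other 5 dense bins were those from 71.1 to 71.4 Mb, with 42, 30 and 42 hypoxia peaks, and those beginning at 68 and 68.4 Mb, with 32 each. It held 785 hypoxia and 342 normoxia peaks, which is 43.6 and 19.0 per 100 kb. In the block 383 hypoxia and 87 normoxia peaks were strong, a ratio of 4.40 (3.48 to 5.62), whereas a fold of at least 3 was reached by 61 and 36, a ratio of 1.69 (1.10 to 2.63). In the normoxia list, by its own 99th percentile of 17 peaks, 1.35% of bins were dense and the block ran from 69.2 to 70.4 Mb. The single bins with most peaks of either whole list lay here, with 57 hypoxia peaks between 70.8 and 70.9 Mb and 36 normoxia peaks between 70.3 and 70.4 Mb. The bin at 70.8 Mb held 30 strong peaks in hypoxia and 0 in normoxia, and the bin at 70.3 Mb held 38 strong peaks in hypoxia and 3 in normoxia.

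The 2 bins that follow the block contain an interval without peaks, and high background continues beyond it. No peak of either list lay between positions 70955336 and 71055975, an interval inside SHANK2, and the peak-free stretch was 101 kb long in hypoxia and 101 kb in normoxia. Whether reads can be placed there was not analysed here. Outside that stretch the bins from 70.9 to 71.1 Mb held 51 hypoxia and 32 normoxia peaks, or 51.5 and 32.3 per 100 kb, against 43.6 and 19.0 in the block. With 2 other bins allowed between dense ones the block reached 71.4 Mb.

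Local background gave the same outer limits in both libraries when 1 lower bin was allowed between high ones. Bins whose peaks had a median background of at least 5 times the list median made up 0.929% of hypoxia bins and 0.607% of normoxia bins in the genome, and the region held 26 of 244 and 23 of 135 of them. In hypoxia they ran without a break from 69.0 to 71.4 Mb. In normoxia they spanned the same interval except for the bins at 69.1 and 69.3 Mb, whose medians of 23.01 and 24.76 reads were below the threshold of 25.36. Outside this interval lay the bins beginning at 68 and 68.3 Mb in hypoxia and the bin beginning at 68 Mb in normoxia. Of the 20 bins with the highest median background in the genome, among bins with at least 5 peaks, 17 in hypoxia and 15 in normoxia lay in the region.

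At the telomeric edge the background fell over successive peaks between SHANK2 and DHCR7. In hypoxia it was 76.2 reads at the summit at 71374446, 25.3 at 71379351, 19.2 at 71381027 and 5.33 at 71387199. In normoxia it was 79.3 reads at 71371977, 34.3 at 71378418, 20.5 at 71381593 and 3.63 at 71389520. The summits that bracket the fall in hypoxia lie between those that bracket it in normoxia.

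At the centromeric edge the change was smaller and lay between MRGPRD and MRGPRF, genes of a receptor family known for itch and pain sensing. The hypoxia background was 15.5 reads at 68993463, 34.3 at 68998720 and 48.3 at 69002883. It reached 85.9 reads at 69008664, inside MRGPRF, and was lower again at 69019116, with 28.2 reads. In normoxia it was 8.06 reads at 68980741, 22.001 at 68998733 and 45.2 at 69008687. MRGPRF, which is just inside this edge, had 3 hypoxia and 4 normoxia peaks in its span and was 1 of 2 genes with more peaks in normoxia, with ATG16L2 (2 and 3).

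**Figure D2:**
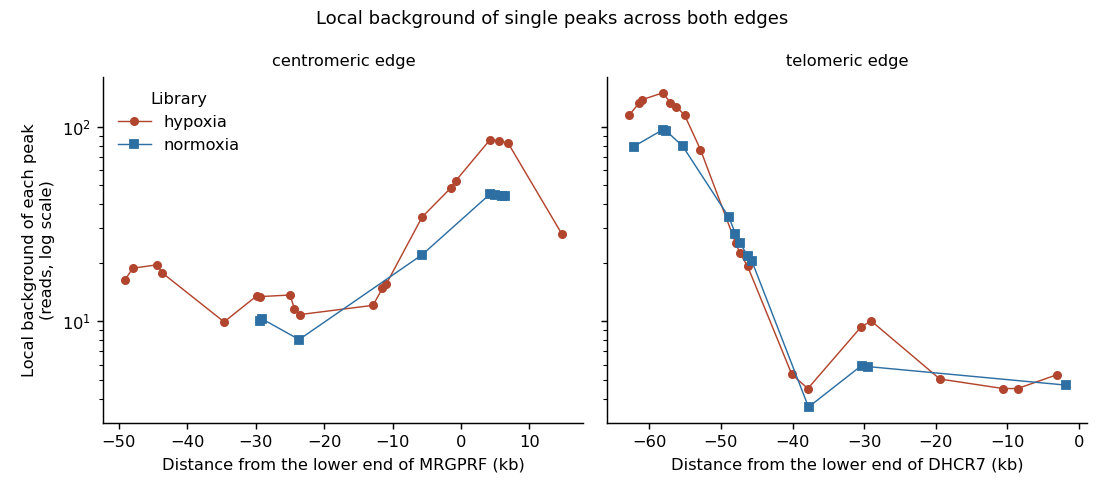
Local background of single peaks (reads, log scale) across the centromeric edge, as distance from the lower end of MRGPRF (left), and across the telomeric edge, as distance from the lower end of DHCR7 (right), for hypoxia (red circles) and normoxia (blue squares). At the telomeric edge both libraries pass from over 75 reads to under 6 reads.

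Inside the limits the background was not level. For segments drawn after the values were seen, with the inner one set on the hypoxia list by bins of at least 15 times its median with 1 lower bin allowed, and applied to both lists, the median background from 69.0 to 69.6 Mb was 41.9 reads in hypoxia and 27.2 in normoxia, and from 69.6 to 71.4 Mb it was 81.3 and 58.5 reads. In the first megabase of the region it was 11.9 and 12.2 reads, and beyond 71.4 Mb 5.89 and 7.20 reads, close to the full-list medians of 4.17 and 5.07. Fold went the other way: its median from 69.6 to 71.4 Mb was 1.92 in hypoxia and 1.75 in normoxia, and beyond 71.4 Mb it was 3.36 and 3.22. The segment with most peaks per 100 kb was thus the one with the lowest fold. A fold of at least 2 was reached there by 41.4% of hypoxia and 26.3% of normoxia peaks, and beyond 71.4 Mb by 100% in both lists. At a low background a peak needs a higher fold to reach a given q-value. How much of the difference in fold came from the authors' threshold was not tested. From 69.6 to 71.4 Mb there were 409 strong hypoxia and 80 strong normoxia peaks, a ratio of 5.11 (4.01 to 6.58). Peaks there with a fold of at least 3 numbered 40 and 24, a ratio of 1.67 (0.981 to 2.89). Those with a fold of at least 2 numbered 319 and 98, a ratio of 3.255 (2.588 to 4.125). Beyond 71.4 Mb the strong peaks numbered 43 and 32, a ratio of 1.34 (0.831 to 2.19), and the peaks with a fold of at least 3 numbered 137 and 58, a ratio of 2.36 (1.73 to 3.27).

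**Figure D3:**
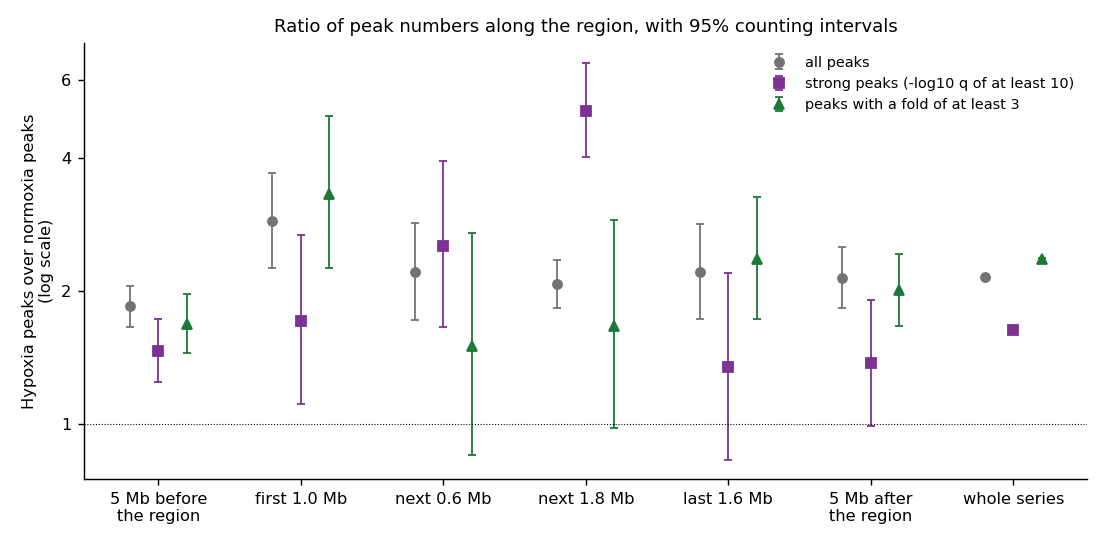
Ratio of hypoxia to normoxia peak numbers (log scale) for all peaks (grey), strong peaks (purple) and peaks with a fold of at least 3 (green) in consecutive segments of the region, in the 5 Mb on either side and in the whole series. Bars are 95% exact counting intervals; the strong ratio reaches 5.11 in the 1.8 Mb segment, where the ratio at a fold of at least 3 is 1.67.

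Peaks in the region were wider and closer together than over the full lists or the rest of the chromosome. Median width was 384 bp in hypoxia and 399.5 bp in normoxia, against 294 and 356 bp over the full lists. In the dense block the medians were 430 and 401 bp, so that there the hypoxia peaks were the wider ones, whereas over the full lists they were the narrower. Neighbouring summits were a median of 1552 bp apart in hypoxia and 4097 bp apart in normoxia in the block, against 1932 and 4938 bp in the region and 6142 and 10528 bp on the rest of the chromosome. The greater width was not particular to the region: in the neighbouring 63 to 68 Mb the medians were 370 bp in hypoxia and 510 bp in normoxia, with summits 3362 and 5938 bp apart. Peaks covered 14.6% of the region in hypoxia and 7.63% in normoxia.

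Most normoxia peaks of the region were also in the hypoxia list, and most hypoxia peaks were not in the normoxia list. Of the hypoxia peaks 40.1% (95% exact interval 37.5 to 42.6%) overlapped a normoxia peak by at least 1 bp, against 32.7% of all hypoxia peaks. Of the normoxia peaks 87.7% (84.9 to 90.1%) overlapped a hypoxia peak, against 68.7% of all normoxia peaks. In the neighbouring 63 to 68 Mb the shares were 49.2% and 86.5%. Summits were a median of 1932 bp apart in hypoxia and 4938 bp in normoxia in the region, against 5645 and 9788 bp over the full lists. Closer peaks overlap more often by position alone, so the higher shares are no measure of agreement between the libraries. The part of spacing in them was not tested. For strong peaks the directions parted. Of the strong hypoxia peaks of the region 70.0% overlapped any normoxia peak, below the 86.6% of the series, and in the dense block the share was 64.5%. Of the strong normoxia peaks 98.9% overlapped a hypoxia peak, against 98.3% in the series.

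Where 1 hypoxia peak met 1 normoxia peak, the summits fell at nearly the same place and the pileup differed. The region held 449 such pairs, with a median summit shift of 62 bp, against 61 bp over the series. In the dense block the pileup of a pair was a median of 1.53 times as high in hypoxia as in normoxia (quartiles 1.23 to 1.76), and 231 of 248 pairs were higher in hypoxia. The ratio was 1.27 over all pairs of the series, most of which have lower pileups, and 1.31 in the neighbouring 63 to 68 Mb. Background differed less, by 1.24 times in the block, 1.21 times in the neighbouring 63 to 68 Mb and 1.04 times in the series. It was also 1.33 times as high in hypoxia in the first megabase of the region, outside the block. The hypoxia peak was the wider of the pair in 66.1% of the block's pairs and 43.5% of all pairs. The ratio of the lowest backgrounds of the lists was 1.04, or 1.18 if the peak caller used the narrowest peak widths, 215 bp in hypoxia and 245 bp in normoxia, as fragment lengths.

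Between 69.0 and 71.4 Mb the difference between the libraries was smallest at the highest peaks. Pairs with a mean pileup of 100 to 200 reads there had a median ratio of 1.59 (207 pairs), against 1.44 for pairs of that pileup outside the region (6744 pairs). Those with 300 reads or more had 1.16 (22 pairs), against 1.18 outside the region (97 pairs). The highest pileup of the whole hypoxia list was 430 reads and that of the whole normoxia list 479 reads, and both were the peak at the start of FADD. These maxima are 100% and 97.8% of 2 times the narrowest peak width of their list, which is 430 bp in hypoxia and 490 bp in normoxia. That product is the most that 1 read per position and strand can give if the narrowest width is the fragment length. Of the 34 hypoxia peaks of the series with a pileup of at least 90% of it, 16 lay in the region, as did 4 of 4 normoxia peaks. The highest peaks described below at CCND1, LTO1, FADD, PPFIA1, CTTN and SHANK2 were among these hypoxia peaks. If the product acted as a limit, it was lower in hypoxia. The pileups of these peaks, and the folds from them, are therefore printed for both lists but not compared. Whether such a limit was applied is not given in the sources used here, and its part in the ratios was not tested.

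**Figure D4:**
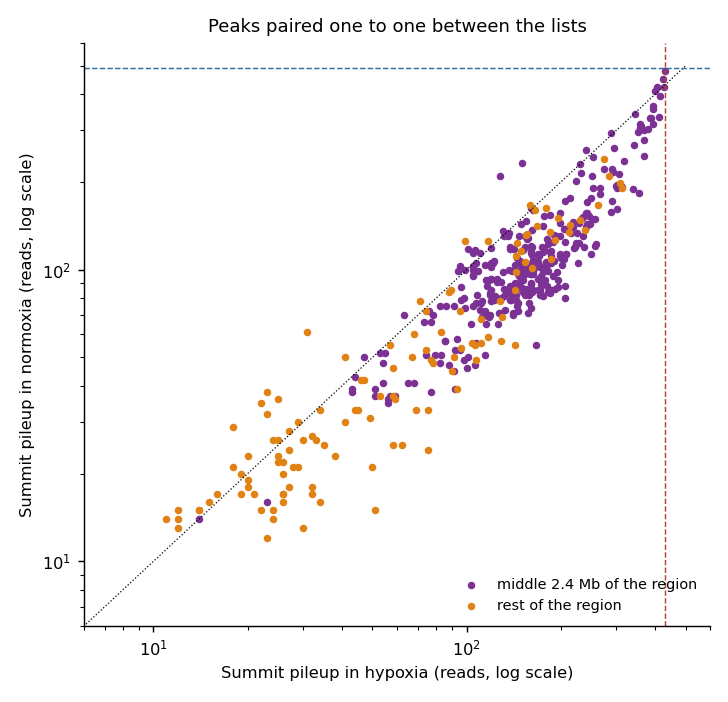
Summit pileup of peaks paired 1 to 1 between the lists, in hypoxia (x axis, reads, log scale) and in normoxia (y axis, reads, log scale), for the middle 2.4 Mb (purple) and the rest of the region (orange). The dotted line marks equal pileups and the dashed lines mark 2 times the narrowest peak width, 430 in hypoxia and 490 in normoxia; most pairs lie below the dotted line and approach it at the top.

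CCND1 (chr11:69641156-69654474) is a short gene, and its peaks lay over the highest background of the named genes. Its span of 13.3 kb held 6 hypoxia and 3 normoxia summits, of which 2 and 1 were strong. That is 45.0 and 22.5 per 100 kb, against 43.6 and 19.0 in the dense block. The main peak, at the lower-coordinate end of the gene, was 1419 bp wide in hypoxia and 1376 bp in normoxia. Its pileup was 413 reads in hypoxia and 394 in normoxia over backgrounds of 242 and 201 reads, which left folds of 1.71 and 1.96. A weaker peak nearer the end, with its summit at 69641352 in hypoxia and 69641382 in normoxia, was also present in both lists. Further into the gene lay a shared peak with its summit at 69648265 in hypoxia and 69648314 in normoxia, and 3 weak hypoxia peaks had no normoxia counterpart. The 343.87 kb between MYEOV, named for its overexpression in myeloma, and CCND1 held 118 hypoxia and 58 normoxia peaks, of which 60 and 19 were strong.

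LTO1 (chr11:69665563-69675353), the next gene and a factor in the maturation of an iron-sulphur protein of the ribosome cycle, combined a high pileup with a high fold. The peak at its start had a pileup of 419 reads in hypoxia and 426 in normoxia, with folds of 5.12 and 4.88. In normoxia it was a single peak of 2109 bp, and in hypoxia the same stretch was split into peaks of 714 and 1327 bp. The gene's span held 6 hypoxia peaks, all strong, and 2 normoxia peaks, both strong.

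The 3 FGF genes differed among themselves. FGF19 (chr11:69698238-69704022), a hormone of bile acid control, had no normoxia summit in its span and 1 weak hypoxia summit. Just beyond its higher-coordinate end both lists had a clear peak, with a pileup of 367 reads in hypoxia and 246 in normoxia and folds of 3.40 and 3.55. FGF4 (chr11:69771022-69775341), a growth factor of the early embryo, had 3 hypoxia peaks at its higher-coordinate end and none in normoxia, where the nearest peak was 6148 bp from the gene. The strongest of the 3 had a pileup of 176 reads over a background of 74.4, a fold of 2.35. FGF3 (chr11:69809968-69819416), another developmental growth factor, had 2 peaks in each list at matching places. The larger, 1569 bp from its start in hypoxia and 1555 bp in normoxia, had a pileup of 289 reads in hypoxia and 158 in normoxia, and folds of 2.96 and 3.21. By peaks within 1000 bp of a gene end, FGF4 alone among these genes was marked in a single list. By summits in the span both FGF4 and FGF19 had peaks in hypoxia only.

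ANO1 (chr11:69965997-70189530), a calcium-activated chloride channel gene, carried peaks along its length. It held 96 hypoxia and 47 normoxia peaks, of which 50 and 18 were strong, with medians of 1570 and 4524 bp between summits. By gene ends it counted as marked in hypoxia only, through a peak of 215 bp with a fold of 1.40 at its lower-coordinate end. At the start that RefSeq gives for its promoter, inside the span, both lists had peaks. The strongest had a pileup of 222 reads in hypoxia and 110 in normoxia, with folds of 2.84 and 2.01. The 146.58 kb between FGF3 and ANO1 held 63 hypoxia and 33 normoxia peaks.

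FADD (chr11:70203296-70207390), the adaptor that links death receptors to caspases, had 1 summit per list in its span. The peak was 2018 bp wide in hypoxia and 2032 bp in normoxia, with summits 339 and 360 bp from the start and folds of 3.45 and 3.76. It was the highest pileup of both lists, at or near the product of 2 times the narrowest width given above, so its 2 pileups are not compared.

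PPFIA1 (chr11:70270690-70384396), which encodes a liprin scaffold of adhesion sites, had the densest peaks of the named genes over 30 kb. It held 66 hypoxia and 45 normoxia peaks, or 58.0 and 39.6 per 100 kb. Of these 47 were strong in hypoxia and 4 in normoxia. Its median background was 58.2 reads in hypoxia and 65.0 in normoxia, and the median fold was 2.23 and 1.73. These medians cover different peaks in the 2 lists, and the cause of the difference in strong peaks was not tested. At its start the pileup was 398 reads in hypoxia and 409 in normoxia.

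CTTN (chr11:70398529-70436575), which encodes the actin regulator cortactin, had 18 hypoxia and 5 normoxia peaks in its span. The peak at its lower-coordinate end, the third widest of the region in hypoxia and the second widest in normoxia, measured 2411 and 2591 bp. The pileup there was 424 reads in hypoxia and 451 in normoxia over backgrounds of 166 and 182 reads. All 5 normoxia peaks in the span overlapped a hypoxia peak, as did the peak at the lower-coordinate end, whose normoxia summit lay 276 bp outside the span. Towards the higher-coordinate end 7 hypoxia peaks between 70429369 and 70437647 faced 1 normoxia peak.

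SHANK2 (chr11:70467854-71253234), a synaptic scaffold gene and the longest gene of the region, held the most peaks. There were 316 in hypoxia and 124 in normoxia, or 40.2 and 15.8 per 100 kb, although its span includes the stretch without peaks. Of these 158 and 17 were strong. The widest hypoxia peak of the region, 3053 bp, lay in SHANK2 and overlapped 2 normoxia peaks. At the higher-coordinate end a peak of 2237 bp in hypoxia and 2158 bp in normoxia had a pileup of 404 and 422 reads. Of the hypoxia peaks in the gene 33.9% overlapped a normoxia peak, against 63.6% in PPFIA1 and 48 of 96 in ANO1. The 174.05 kb between SHANK2 and DHCR7 held 60 hypoxia and 43 normoxia peaks, most of them before the telomeric edge.

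**Figure D5:**
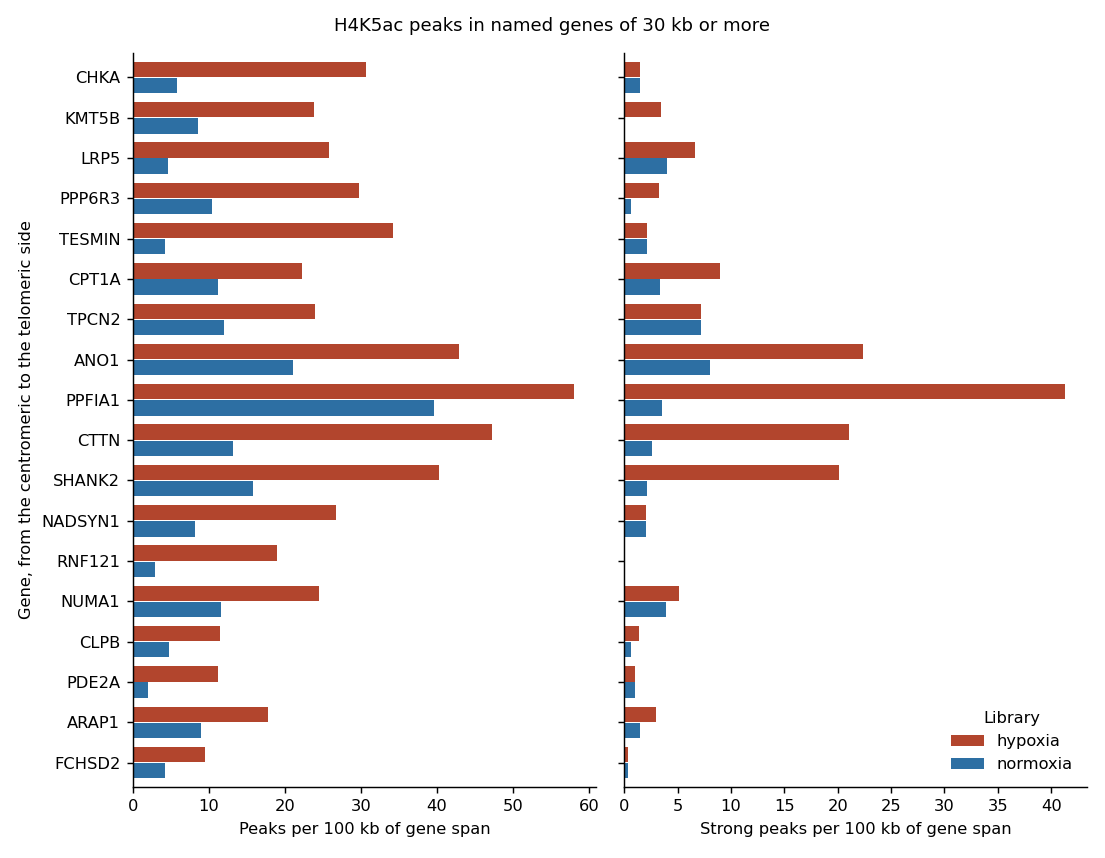
Peaks per 100 kb of gene span (left) and strong peaks per 100 kb of gene span (right) in the named genes of 30 kb or more, ordered from the centromeric to the telomeric side, for hypoxia (red, upper bar) and normoxia (blue, lower bar). ANO1, PPFIA1, CTTN and SHANK2 have the most strong peaks in hypoxia, and PPFIA1 reaches 58.0 peaks per 100 kb in hypoxia and 39.6 in normoxia.

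The 10 genes of the amplicon centre, CCND1 to SHANK2, together held 513 hypoxia and 229 normoxia peaks, of which 275 and 45 were strong. Of these genes 8 had more peaks in hypoxia and 2, FGF3 and FADD, had equal numbers, a count not made over all genes. The 11 genes of the centromeric side held 145 and 48 peaks, of which 33 and 20 were strong. The 24 genes of the telomeric side held 145 and 60, of which 25 and 21 were strong. The larger share of strong hypoxia peaks thus belonged to the centre.

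On the centromeric side 33 of the 145 hypoxia peaks were strong. LRP5, a Wnt co-receptor gene, had 39 hypoxia and 7 normoxia peaks, of which 10 and 6 were strong. The widest normoxia peak of the region, 2724 bp, lay at 68312622 in LRP5, close to its RefSeq start, and was met by 4 hypoxia peaks. A stretch of 92.2 kb of LRP5 without a normoxia peak held 21 hypoxia peaks. From 68 to 69 Mb there were 25.6 hypoxia and 8.9 normoxia peaks per 100 kb. PPP6R3, a phosphatase regulatory subunit gene, had 46 and 16 peaks, of which 5 and 1 were strong. TESMIN, a testis-expressed gene, had 16 and 2. CHKA, a choline kinase gene, had 21 and 4, and KMT5B, a histone H4 methyltransferase gene, 14 and 5. CHKA and KMT5B lie on this side too, but are outside the gene list that held the 145 peaks. Between GAL and the upper end of TESMIN a stretch of 64.9 kb without a normoxia peak held 19 hypoxia peaks. Both stretches were picked as being among the longest of the region without a normoxia peak. Others of these, beyond the telomeric edge, held 4 hypoxia peaks in 106 kb and 5 in 77.3 kb, and the one inside SHANK2 held 0. CPT1A, which encodes the enzyme that admits fatty acids to mitochondria, had 20 and 10 peaks, of which 8 and 3 were strong. TPCN2, a lysosomal cation channel gene inside the centromeric edge, had 10 and 5 peaks, with 3 strong in each list.

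Beyond the telomeric edge peaks were sparser and of higher fold than in the block, though their median folds of 3.36 in hypoxia and 3.22 in normoxia were below the 3.49 and 3.36 of the full lists. The background there was also lower, and at a lower background only peaks of higher fold pass a q-value threshold. DHCR7, the last enzyme of cholesterol synthesis, had 5 hypoxia and 2 normoxia peaks, with 2 strong in each list. NADSYN1, an NAD synthesis gene, had 13 and 4, RNF121, a RING finger gene, 13 and 2, and NUMA1, a mitotic spindle gene, 19 and 9. CLPB, a mitochondrial chaperone gene, had 17 and 7, with a start peak of fold 15.98 in hypoxia and 11.40 in normoxia. ARAP1, a GTPase-activating protein gene, had 12 and 6, and FCHSD2, a membrane-shaping protein gene that crosses the 73 Mb limit, 29 and 13. All 5 hypoxia peaks of highest fold in the region, 11.40 to 17.46, lay outside the block, as did the 5 of normoxia, 8.69 to 11.49. The highest of normoxia, at the upper end of TESMIN, had a fold of 12.93 in hypoxia. The highest of hypoxia, 17.46, lay 19649 bp from DEFB108B and overlapped a normoxia peak.

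Of the 59 protein-coding genes that touch the region, 45 had a peak within 1000 bp of a gene end in both lists, 8 had one in hypoxia alone and 6 in neither list, while 0 had one in normoxia alone. Over 19974 genes these classes took 69.3%, 11.7%, 17.9% and 1.08%, so the region's hypoxia-only count is near the background. The 8 hypoxia-only genes were MRGPRF, LOC124902704, FGF4, ANO1, KRTAP5-8 and KRTAP5-11, which are hair keratin-associated protein genes, FOLR1, a folate receptor gene, and PDE2A, a cyclic nucleotide phosphodiesterase gene. FOLR1 rested on 1 hypoxia peak of 19 reads and fold 2.32, and PDE2A on 1 of 15 reads and fold 2.77. Around RefSeq starts, known for 38 of the 59 genes, 32 had peaks in both lists, 2 in hypoxia only and 4 in neither. Over 15830 genes with such a start these classes took 71.6%, 9.67% and 18.0%. In gene spans 38 of 59 genes held more hypoxia peaks and 19 held equal numbers, of which 5 had no peak. The full hypoxia list was 2.15 times as long as the normoxia list. The same count over all genes was not made, so this one has no background to be read against.

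The share of summits inside genes was close to the share of sequence that genes take. Gene spans cover 57.1% of the region, and 58.5% of its hypoxia peaks (95% exact interval 55.9 to 61.1%) and 54.3% of its normoxia peaks (50.4 to 58.2%) had a summit in one. In the block, where spans cover 48.1%, the shares were 52.1% (48.5 to 55.7%) and 47.4% (42.0 to 52.8%). Peaks between genes were a median of 414 bp wide in hypoxia and 412 bp in normoxia, and those in genes 364.5 and 396 bp.

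The interval's limits fell between peaks of ordinary fold. The last hypoxia summit before 68 Mb was at 67997713 (fold 2.10) and the first inside at 68002975 (fold 2.74), and in normoxia these were at 67997285 and 68002660 (fold 2.19). The last hypoxia summit inside was at 72949217 (fold 3.30) and the next at 73010920 (2.83), and in normoxia these were at 72839044 (2.68) and 73042010 (3.15).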

How the data were processed

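The authors deposited 1 narrowPeak list for each library. Per the submitters' processing notes the genome build was hg38, with MACS2 and SICER as tools. The sources used here do not give versions, settings or any control. Deposited values of each peak are a score, a fold (ratio of pileup to background), −log10 p- and q-values and the summit's offset. These are the authors' values, used to describe, rank or filter peaks.

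Pileup and local background were solved from the deposited fold and −log10 p-value, taking the fold as (pileup + 1) / (background + 1) and p as a Poisson tail. All peaks but 2 hypoxia peaks were solved to within 0.01 of the deposited −log10 p-value. Read totals are unknown, as is whether the background came from a control library. The scripts were tested on simulated data (Python 3.11.15, numpy 2.4.6, pandas 2.3.3, scipy 1.17.1).

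Genes, promoters and miRNAs came from RefSeq tables of GRCh38.p14, which hg38 corresponds to. The gene table gives no strand, and exons, introns and UTRs were not distinguished. All 45 genes of the 3 lists matched by symbol.

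Overlap means at least 1 bp. Shares and ratios carry exact 95% (Clopper-Pearson) intervals over peaks, which are not replicates, and cover counting error only. With 1 library per condition no test was possible. The members, lists and rules were chosen with earlier results of these data known. Genes named were the 6 of the region's description, 16 others of the band, the 5 others with most hypoxia peaks, genes at the edges of the block, genes marked in 1 list, and the 5 widest and 5 highest-fold peaks per list. GAL, ATG16L2 and DEFB108B were added after their values were seen or as landmarks. Alternatives covered the q-value and fold threshold, equal list lengths, merging, overlap, bin size, percentile and gene-end window.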

Additional observations from a re-analysis of the deposited data

How the results depend on the processing

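Of 67 recomputed values 34 stayed within their tolerance and 33 moved. The tolerance was the interval of the main value, 1 bin for edges and 1.5 times for counts. Each value was set against its own main value, so changes of direction between the lists were not counted. With strong peaks in both lists, the ratio of peak numbers was 3.31, overlap 32.6% of hypoxia and 95.5% of normoxia peaks, width 605 and 964 bp, block spacing 3291 and 14194 bp, and the block ended at 71.4 Mb; 4 genes then had a gene-end peak in hypoxia alone and 17 in neither list. With equal list lengths the ratio was 1.64, against 1.00 over the full lists by construction. Overlap was then 49.3% and 80.5%, the hypoxia spacing 1870 bp and the block's end 71.4 Mb. Width was 467 bp in hypoxia and 399.5 bp in normoxia. Hypoxia peaks were then the wider, whereas as deposited they were the narrower, at 384 against 399.5 bp. A gene-end peak was found in hypoxia alone for 4 genes and in neither list for 10. With the other list limited to strong peaks, overlap was 14.7% and 65.1%; at 50% of the shorter peak, normoxia overlap was 83.4%. Merging peaks within 500 bp gave spacings of 2804 and 5860 bp. In the dense block alone the widths were 430 bp in hypoxia and 401 bp in normoxia. The block's end was 71.4 Mb with 200 kb bins, the 95th percentile, 2 other bins allowed or a background of at least 5 times the list median, 70.4 Mb in the normoxia list, and 71.5 Mb (start 68 Mb) at 2 times the median. A 2000 bp window left 3 genes in neither list, and RefSeq starts gave 2 in hypoxia only. The 2-bin allowance, the 5-fold background, the fold thresholds and RefSeq starts were chosen after seeing the data. The cause of each move was not tested beyond its construction. No paired analysis was possible because each condition has 1 library.

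With 1 library per condition, no difference has a replicate check. The lists hold peaks only, so depth limits them to peaks that passed the authors' threshold, and reads between peaks are unknown.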

Other observations

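Of the miRNA genes of the region in the RefSeq table, MIR6754 alone was overlapped by a peak, in hypoxia. Distances of the others to the nearest peak varied, up to 17442 bp for an arm of MIR139 in normoxia. MIR548K, inside PPFIA1, was 885 bp from the nearest hypoxia peak and 2349 bp from the nearest normoxia peak. MIR3664, inside SHANK2, was 143 and 112 bp from the nearest peaks. The hairpin of MIR6754, inside NADSYN1, was overlapped by 1 hypoxia peak, and the nearest normoxia peak was 14641 bp away.

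Promoters under peaks in both lists were richer in CpG than those under none. Of 51 RefSeq promoters of the region's genes, 35 were overlapped in both lists, with a median of 26 CpG in 300 bases, 3 in hypoxia only (median 7), 1 in normoxia only (2) and 12 in neither (median 4). A hypoxia response element core was present in 45.7% of the 35, against 48.48% of all promoters.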
